A study of Homo sapiens with 24 samples.

Results

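The data cover 10 target genes of the tumor suppressor p53 that act in growth arrest, stress handling and metabolism: BTG2, ZMAT3, TP53INP1, SPATA18, RRM2B, FDXR, TP53I3, SESN1, SESN2 and GDF15. They were found on the arrays through the RefSeq accession of each probe, which gave 13 probes for the 10 genes among 50599 probes of the 24 h array, and the same 13 probes on the 48 h array. All 10 genes were above the background threshold at both time points, among 36918 genes at 24 h and 38200 genes at 48 h. The rule that finds their probes uses no measured value, but the 10 genes were chosen with earlier results of these data known. The shares of all genes given beside their counts therefore describe these arrays and are no independent test.

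The study asked what happens to gene expression in LNCaP cells when the long non-coding RNAs TAPIR-1 and TAPIR-2 are silenced. LNCaP is an established prostate cancer cell line that carries wild-type p53. Cells received si-SCRL (a scrambled siRNA, labelled scramble), si-A1 (against TAPIR-1) or si-A2 (against TAPIR-2), and each siRNA was given to 4 biological replicates for each time point, 24 h and 48 h. All 3 groups were therefore transfected, no group was left untransfected, and each transcript was targeted by 1 siRNA only. Each of the 24 samples was measured on its own one-colour Agilent array, and the 48 h array of si-A2 replicate 2, which was dim, was left out, so that 23 arrays were used.

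The median processed intensity per array ranged from 24.4 to 57.2 at 24 h and, at 48 h, from 20.4 to 32.2, with 13.9 on the array left out. All 10 luminal prostate markers checked, among them KLK3, were well above background on every array used. Of the markers of other cell types measured at 24 h, 1 of 4 basal, 1 of 3 stromal and 4 of 4 leukocyte genes were so on every array. At 24 h limma called 0 of them in any comparison. Of all genes, 0.0731% to 0.943% were called in a given direction there, so 0 among so few genes says little. TAPIR-1 could not be checked, for want of a matching probe. The TAPIR-2 probe read 4.07 ± 0.74 in the si-A2 samples and 5.04 ± 0.18 in si-SCRL at 24 h (SD, n = 4 each; two-sided p = 0.0286 by exact permutation, the lowest value this design can give). It was well above background on only 2 of the 4 si-A2 arrays, so the size of the difference, -0.97, is uncertain. In the si-A1 samples, where TAPIR-2 was not the target, it read 4.64 ± 0.32 (SD, n = 4), a difference of -0.39 (two-sided p = 0.0571 by exact permutation). At 48 h this probe gave 4.69 ± 0.90 (SD, n = 3) in the samples labelled si-A2 and 4.64 ± 0.59 (SD, n = 4) in si-SCRL, so a lower level was not seen there (two-sided p = 0.943 by exact permutation). A further TAPIR-2 probe of the 48 h version was well above background on 0 arrays.

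p53 is a transcription factor that is kept low in unstressed cells by the ubiquitin ligase MDM2 and accumulates after DNA damage and other stress. Besides CDKN1A, which encodes the cyclin-dependent kinase inhibitor p21, it activates genes that slow the cell cycle, supply nucleotides for repair, adjust mitochondrial function and restrain growth signaling, and the 10 genes described here belong to that group. Values are log2 intensities, so that a difference of 1 stands for a doubling of intensity. They were made comparable by quantile normalization within a time point, or over both time points where these are compared. Calls required an adjusted p under 0.01 (limma, Benjamini-Hochberg adjustment over all genes tested) together with a log2 difference of 0.5 or more in either direction. With bulk RNA, a change in every cell cannot be told apart from a change in the share of cells that express a gene.

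At 24 h, most of these genes were called higher after si-A2 and 1 of them after si-A1, though these calls were lost under some alternative settings. After si-A2, 7 of the 10 genes were called higher than after si-SCRL and none lower, where 0.0758% of all genes tested were called higher and 0.826% lower. The 7 genes were ZMAT3, SPATA18, BTG2, RRM2B, FDXR, TP53I3 and TP53INP1, with fold changes between 2.08 and 2.59, and the median log2 fold change over the 10 genes was 1.18, against 0.05 over all genes. After si-A1, TP53INP1 alone was called, where 0.0731% of all genes were called higher and 0.943% lower, and the median of the 10 genes was 0.05, against 0.06 over all genes. Within the 12 arrays, in 7 of the 10 genes every array of si-A2 lay above every array of si-SCRL, a pattern seen in 3.13% of all genes, and in 2 of the 10 every array of si-A1 did, against 3.75% of all genes. The log2 fold change was above 0 in 9 of the 10 genes for si-A2 and in 5 of the 10 for si-A1, against 57.1% and 57.2% of all genes.

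**Figure D1:**
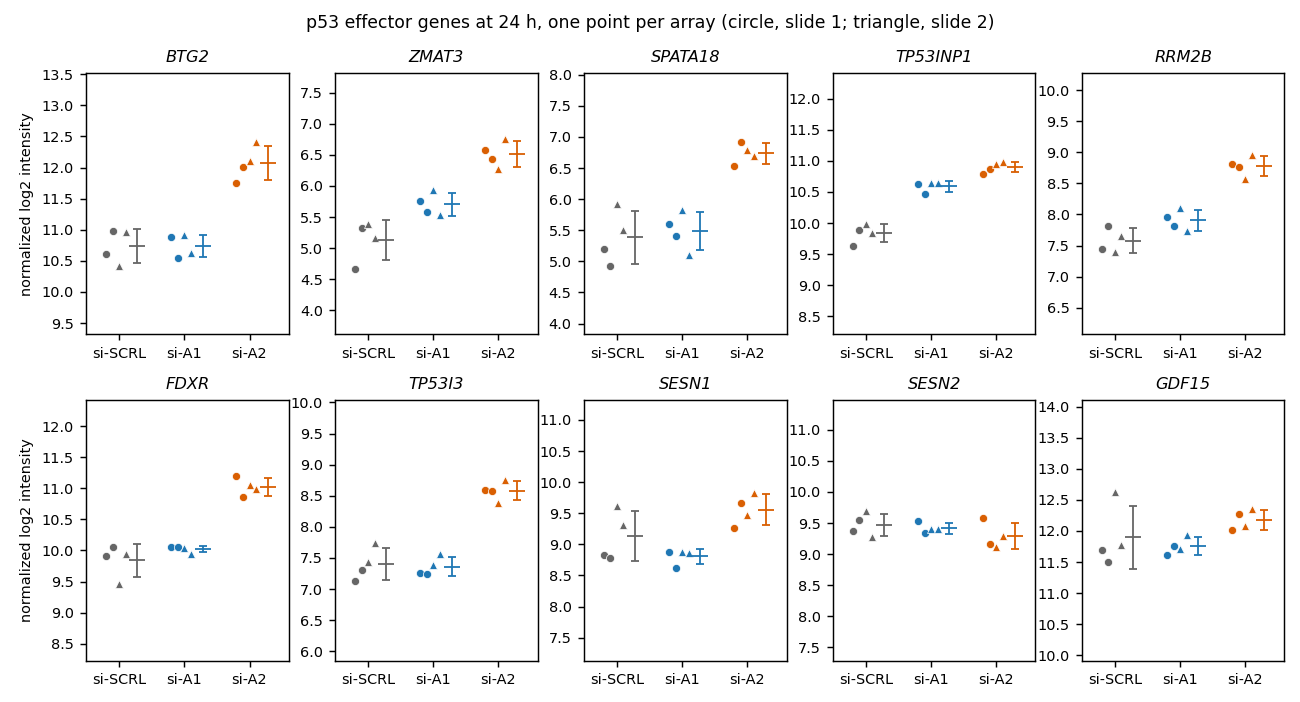
Normalized log2 intensity (y axis, arbitrary units on a log2 scale spanning the same range in each panel) of the 10 p53 effector genes at 24 h after si-SCRL, si-A1 and si-A2. Each point is 1 array (circles, slide 1; triangles, slide 2), and the bar beside the points is the mean ± SD of 4 arrays. The si-A2 arrays of BTG2 lie between 11.76 and 12.42, above all arrays of the other groups, while the groups of SESN2 overlap.

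The arrest gene BTG2 (GRCh38.p14, chr1:203305519-203309602), an antiproliferative protein of the BTG/TOB family, read 10.61, 10.98, 10.42 and 10.96 in replicates 1 to 4 of si-SCRL at 24 h. It read 10.88, 10.55, 10.91 and 10.62 after si-A1 and 11.76, 12.01, 12.10 and 12.42 after si-A2. The si-A1 arrays lay among those of si-SCRL, and every si-A2 array lay above both. The log2 fold change was 1.33 (95% confidence interval 0.92 to 1.74, adjusted p = 0.00316) for si-A2, a fold of 2.52, and 0.00 (95% interval -0.41 to 0.41) for si-A1.

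ZMAT3 (chr3:179017223-179072513) encodes a zinc finger protein that binds RNA. At 24 h it read 4.66, 5.32, 5.39 and 5.16 after si-SCRL, 5.76, 5.59, 5.93 and 5.53 after si-A1 and 6.57, 6.43, 6.27 and 6.76 after si-A2. The 3 groups did not overlap and were ordered si-SCRL, si-A1, si-A2. The fold change was 2.59 (95% interval 1.96 to 3.44, adjusted p = 0.00245) after si-A2, and the smaller difference of si-A1 (log2 0.57) was not called (adjusted p = 0.203). With normexp background correction the si-A2 value of ZMAT3 was 0.65 on the log2 scale, against 1.38 here, and it was called.

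TP53INP1 (chr8:94925972-94949378) is a stress protein that takes part in autophagy, and SPATA18 (chr4:52051304-52097299), also named Mieap, acts in the quality control of mitochondria. TP53INP1 read 9.64, 9.88, 9.99 and 9.85 after si-SCRL at 24 h, 10.62, 10.46, 10.64 and 10.65 after si-A1 and 10.79, 10.87, 10.95 and 10.98 after si-A2. The 3 groups did not overlap. Of the 10 genes it alone was called for both siRNAs at 24 h, at a fold of 1.69 (95% interval 1.42 to 2.01, adjusted p = 0.00545) for si-A1 and 2.08 (95% interval 1.75 to 2.48, adjusted p = 0.000585) for si-A2. A second TP53INP1 probe read 10.59 on si-SCRL replicate 3 and between 8.81 and 9.33 on the other si-SCRL arrays, and with it neither difference was called (log2 fold change 0.52 and 0.90, adjusted p over all probes 0.462 and 0.192). SPATA18 read 5.19, 4.92, 5.92 and 5.50 after si-SCRL, 5.60, 5.42, 5.82 and 5.10 after si-A1 and 6.53, 6.93, 6.79 and 6.70 after si-A2, a fold of 2.55 for si-A2 (95% interval 1.83 to 3.55, adjusted p = 0.00819). With normexp background correction the si-A2 value of SPATA18 was 0.69 on the log2 scale, against 1.35 here, and it was called. Its si-A1 arrays lay within the range of si-SCRL (log2 fold change 0.10, adjusted p = 0.873).

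RRM2B (chr8:102204501-102238961) encodes the small subunit of ribonucleotide reductase that p53 induces, which makes deoxyribonucleotides outside the S phase. It read 7.45, 7.82, 7.39 and 7.66 after si-SCRL at 24 h, 7.96, 7.81, 8.11 and 7.74 after si-A1 and 8.82, 8.76, 8.56 and 8.96 after si-A2. The si-A2 arrays stood apart (fold 2.29, 95% interval 1.82 to 2.89, adjusted p = 0.00176), and the si-A1 arrays overlapped with si-SCRL (log2 fold change 0.32, adjusted p = 0.424). Its other probe gave a log2 fold change of 0.76 for si-A2, which was not called (adjusted p over all probes 0.0343).

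FDXR (chr17:74862497-74872994), the mitochondrial ferredoxin reductase, and TP53I3 (chr2:24077433-24084834), a quinone oxidoreductase known as PIG3, are enzymes of redox metabolism. FDXR read 9.91, 10.06, 9.46 and 9.94 after si-SCRL at 24 h, 10.06, 10.06, 10.03 and 9.95 after si-A1 and 11.20, 10.85, 11.04 and 10.99 after si-A2. TP53I3 read 7.13, 7.30, 7.44 and 7.74 after si-SCRL, 7.25, 7.24, 7.38 and 7.57 after si-A1 and 8.60, 8.58, 8.39 and 8.76 after si-A2. For both genes every si-A2 array was above all others, with folds of 2.27 (95% interval 1.81 to 2.83, adjusted p = 0.0015) and 2.26 (95% interval 1.82 to 2.82, adjusted p = 0.00135), and the si-A1 log2 fold changes were 0.18 and -0.04. The other TP53I3 probe gave 1.28 for si-A2 (adjusted p over all probes 0.00113) and 0.03 for si-A1.

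The sestrins SESN1 (chr6:108984309-109094846) and SESN2 (chr1:28259518-28282491) are stress-induced inhibitors of the growth regulator mTORC1, and GDF15 (chr19:18386158-18389176) is a secreted cytokine of the TGF-β superfamily. SESN2 and GDF15 are also induced by the stress factor ATF4. None of the 3 was called at 24 h. SESN1 read 8.82, 8.78, 9.61 and 9.32 after si-SCRL, 8.87, 8.63, 8.88 and 8.86 after si-A1 and 9.26, 9.67, 9.47 and 9.83 after si-A2, so that si-A2 overlapped with si-SCRL (log2 fold change 0.42, adjusted p = 0.365) but not with si-A1. SESN2 lay between 9.12 and 9.69 on all 12 arrays, with log2 fold changes of -0.05 for si-A1 (95% interval -0.38 to 0.27) and -0.18 for si-A2 (95% interval -0.50 to 0.14). GDF15 lay between 11.49 and 11.94 on the si-A1 arrays and 3 of the si-SCRL arrays, and si-SCRL replicate 3 read 12.63, above all si-A2 arrays, which lay between 12.01 and 12.35 (log2 fold change of si-A2 0.28, adjusted p = 0.676).

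Promoter windows from RefSeq (GRCh38.p14, 250 bases before to 50 bases after an annotated start) were held for 8 of the 10 genes, in 12 windows. They were searched for the p53 decamer, the 10-base consensus of which a p53 response element holds a pair; the consensus reads the same on both strands. A match occurred in 1 window of FDXR, which si-A2 raised at 24 h, and in 1 window of SESN1, which was not called. That is 16.7% of the 12 windows, against 6.63% of all 35116 promoter windows. The 100 bases before each of these starts are shown because they are the windows with a match, with the decamer in capitals, which starts 11 bases before the start of FDXR (minus strand, chr17:74872995-74873094) and 49 bases before that of SESN1 (minus strand, chr6:109008989-109009088). A match is a run of letters and not a measured binding site.
FDXR: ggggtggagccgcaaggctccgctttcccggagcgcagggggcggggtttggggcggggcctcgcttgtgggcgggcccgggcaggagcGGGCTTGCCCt
SESN1: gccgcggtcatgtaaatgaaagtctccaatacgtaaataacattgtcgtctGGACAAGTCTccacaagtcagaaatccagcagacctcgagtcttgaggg

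The siRNAs were also compared with each other at 24 h. The comparisons of si-A1 and of si-A2 share the si-SCRL arrays. BTG2 (log2 difference 1.33, 95% interval 0.92 to 1.74, adjusted p = 0.00793) and TP53I3 (1.22, 95% interval 0.91 to 1.54, adjusted p = 0.00307) exceeded their si-A1 levels after si-A2 and were called, 2 of the 10 genes where 0.206% of all genes were called higher and 0.103% lower. The difference was above 0 in 9 of the 10, against 47.7% of all genes. FDXR differed by 1.00 (95% interval 0.67 to 1.32) and was not called (adjusted p = 0.0102). In 9 of the 10 genes, all but SESN2, every si-A2 array lay above every si-A1 array, which 5.21% of all genes did. TP53INP1 differed least of the 7 genes raised by si-A2, by 0.31 (95% interval 0.05 to 0.56, adjusted p = 0.33). Within each of the 2 slides, 9 of the 10 genes were higher after si-A2 than after si-SCRL and 9 exceeded their si-A1 level. The share of all genes within a slide was not determined.

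For si-A2 against si-SCRL at 24 h, with the filter on the interquartile range that the study's methods used (at least 0.5), 8 of the 10 genes were tested and 0 called, with the adjusted p of the 7 genes between 0.01 and 0.021, and with only the compared groups in the fit 0 were called, with adjusted p between 0.0139 and 0.0291. At an unadjusted p under 0.05, 8 of the 10 genes passed in the fit described here. For this and the later counts at an unadjusted p, the share of all genes was not determined. Nor was it for counts under other settings or with arrays left out, here and later. Without si-A2 replicate 2 or without si-A2 replicate 4, 4 genes were called. The TP53INP1 call of si-A1 was lost with any of 11 of the 12 arrays left out, all but si-SCRL replicate 3, with only the 2 groups in the fit (adjusted p = 0.0637) and with the interquartile filter (adjusted p = 0.108). Between the siRNAs at 24 h, either of these settings left 0 calls, as did leaving out any array of si-A1 or si-A2 replicate 1, 2 or 4.

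At 48 h, members of the group read higher after both siRNAs, though the calls for si-A2 were lost when any single array was left out. After si-A1, 5 of the 10 genes were called higher (ZMAT3, SPATA18, TP53I3, FDXR and RRM2B) and none lower, where 2.3% of all genes tested were called higher and 3.53% lower. After si-A2, 2 of the 10 were called, SPATA18 and RRM2B, where 0.0654% of all genes were called higher and 0.343% lower, and ZMAT3 and TP53I3 just missed the threshold (adjusted p = 0.0104 and 0.0115). The log2 fold change was above 0 in all 10 genes for both siRNAs, against 58.5% and 53.3% of all genes, with medians of 0.64 for si-A1 and 0.82 for si-A2 on the log2 scale, against 0.07 and 0.02 over all genes. Every array was above every si-SCRL array in 7 genes for si-A1 and in 8 for si-A2, against 7.13% and 4.22% of all genes.

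**Figure D2:**
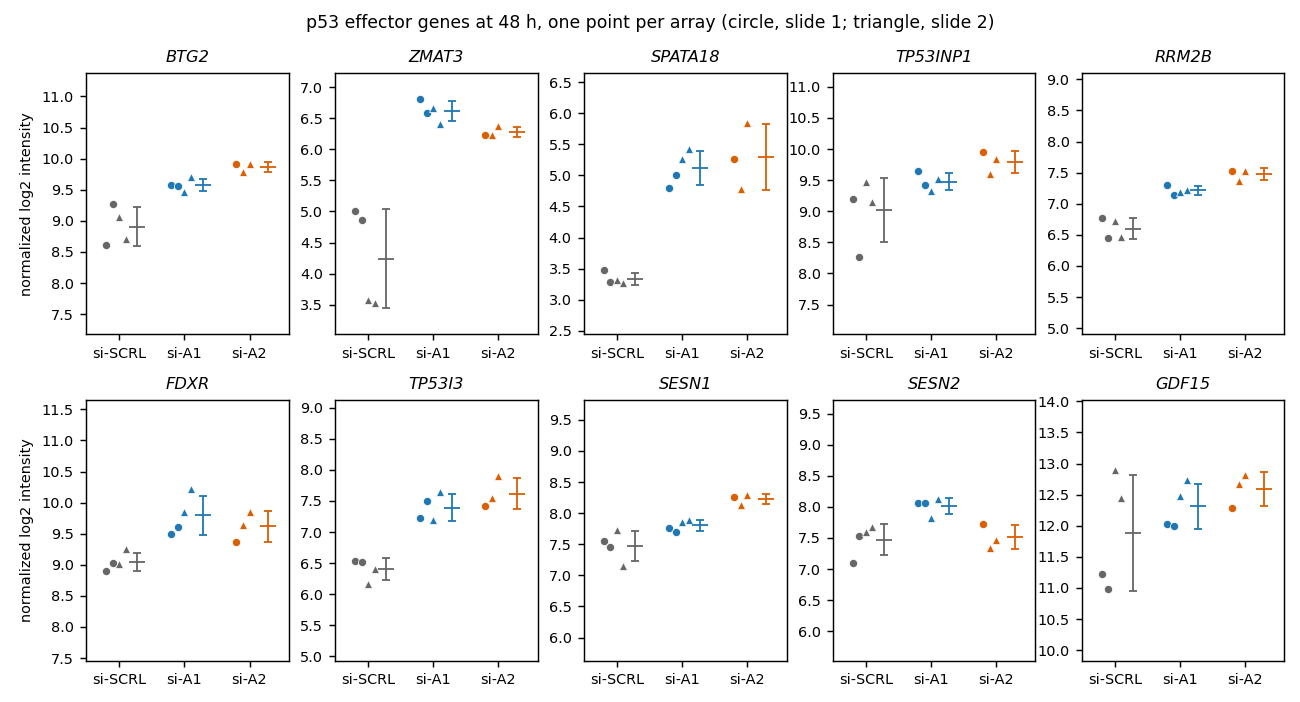
Normalized log2 intensity (y axis, arbitrary units on a log2 scale spanning the same range in each panel) of the 10 p53 effector genes at 48 h. Each point is 1 array (circles, slide 1; triangles, slide 2), and the bars are mean ± SD of 4 arrays, or of 3 for si-A2. SPATA18 lies between 3.26 and 3.48 after si-SCRL and at 4.78 or higher on every si-A1 and si-A2 array. GDF15 and ZMAT3 after si-SCRL fall into slide pairs.

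ZMAT3 and SPATA18 were dim after si-SCRL at 48 h, where SPATA18 was well above background on 1 of 4 arrays and ZMAT3 on 3 of 4, so the size of their fold changes depends on the background correction. ZMAT3 read 5.01, 4.86, 3.57 and 3.53 after si-SCRL, 6.80, 6.58, 6.66 and 6.41 after si-A1 and 6.22, 6.23 and 6.37 after si-A2 (replicates 1, 3 and 4). Its si-SCRL arrays separated by slide, and the log2 difference of si-A1 was 1.76 on slide 1 and 2.99 on slide 2; its fold was 5.17 (95% interval 3.41 to 7.86, adjusted p = 0.00068) after si-A1 and 4.36 (95% interval 2.77 to 6.88) after si-A2. SPATA18 read 3.48, 3.28, 3.32 and 3.26 after si-SCRL, 4.80, 5.01, 5.26 and 5.42 after si-A1 and 5.26, 4.78 and 5.85 after si-A2. Every si-A1 and si-A2 array lay above every si-SCRL array, and SPATA18 was called for si-A1 (log2 fold change 1.79, adjusted p = 0.00106) and si-A2 (1.94, adjusted p = 0.00748). With normexp background correction the log2 fold changes of SPATA18 were 0.44 for si-A1 and 0.51 for si-A2, and neither was called. Those of ZMAT3 were then 0.94 and 0.79, and both were called.

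TP53I3 read 6.53, 6.52, 6.16 and 6.41 after si-SCRL, 7.22, 7.50, 7.19 and 7.64 after si-A1 and 7.41, 7.55 and 7.90 after si-A2, with no overlap of either siRNA with si-SCRL. It rose 1.98-fold (95% interval 1.55 to 2.52, adjusted p = 0.00418) after si-A1, and the 2.32-fold difference of si-A2 (95% interval 1.78 to 3.03) missed the threshold. Its other probe gave 1.47 for si-A1, which was called, and 1.35 for si-A2, which was not (adjusted p over all probes 0.0169). FDXR read 8.89, 9.02, 9.01 and 9.26 after si-SCRL, 9.50, 9.61, 9.84 and 10.22 after si-A1 and 9.36, 9.64 and 9.84 after si-A2. It rose 1.68-fold after si-A1 (95% interval 1.39 to 2.03, adjusted p = 0.00464), and the si-A2 difference of 0.51 on the log2 scale was not called (adjusted p = 0.0891). RRM2B read 6.76, 6.44, 6.72 and 6.46 after si-SCRL, 7.30, 7.14, 7.19 and 7.22 after si-A1 and 7.53, 7.36 and 7.53 after si-A2. It rose 1.53-fold (95% interval 1.30 to 1.81, adjusted p = 0.00577) and 1.84-fold (95% interval 1.54 to 2.20, adjusted p = 0.00871), and its other probe was called for both siRNAs as well (log2 fold change 0.75 and 1.17). With normexp correction the si-A1 value of RRM2B was 0.40 on the log2 scale, against 0.62 here, and it was not called, and that of TP53I3 was 0.65, against 0.98, and it was called.

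BTG2, which si-A1 left level at 24 h, read 8.61, 9.27, 9.06 and 8.70 after si-SCRL at 48 h, 9.58, 9.56, 9.46 and 9.70 after si-A1 and 9.91, 9.78 and 9.91 after si-A2. The 3 groups did not overlap, but neither the si-A1 difference (0.67, adjusted p = 0.0182) nor that of si-A2 (0.97, adjusted p = 0.0216) was called. At 48 h the brighter TP53INP1 probe was the one that was dimmer at 24 h, so its levels are not those of the 24 h probe. It lay between 8.27 and 9.47 after si-SCRL, between 9.32 and 9.64 after si-A1 and between 9.59 and 9.95 after si-A2. The si-A2 arrays were above all si-SCRL arrays and the si-A1 arrays were not, and TP53INP1 was not called for si-A1 (0.46, adjusted p = 0.247) or si-A2 (0.75, adjusted p = 0.181). The 24 h probe gave 0.37 and 0.68 at 48 h, which were not called either.

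SESN1 read 7.55, 7.46, 7.73 and 7.15 after si-SCRL, 7.77, 7.70, 7.85 and 7.90 after si-A1 and 8.26, 8.14 and 8.29 after si-A2, with a log2 fold change of 0.33 for si-A1 (adjusted p = 0.129) and 0.75 for si-A2 (adjusted p = 0.0287). SESN2 read 7.10, 7.53, 7.59 and 7.68 after si-SCRL, 8.06, 8.06, 7.82 and 8.12 after si-A1 and 7.73, 7.34 and 7.47 after si-A2. Its si-A1 arrays were above all si-SCRL arrays (0.54, adjusted p = 0.0415) and its si-A2 arrays were not (0.04, adjusted p = 0.943), and the difference between the siRNAs, -0.50, was not called (adjusted p = 0.136). GDF15 read 11.22, 10.98, 12.90 and 12.45 after si-SCRL, with the higher values on slide 2. The si-A1 arrays, up to 12.74, and the si-A2 arrays, at 12.28, 12.67 and 12.82, lay within the range of si-SCRL, and GDF15 was not called for si-A1 (0.42, adjusted p = 0.271) or si-A2 (0.55, adjusted p = 0.3).

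Between si-A2 and si-A1 at 48 h, 0 of the 10 genes were called, where 0.906% of all genes were called higher and 0.421% lower. Of the 10, 3 had an unadjusted p under 0.05, with the share of all genes not determined. The difference was above 0 in 7 of the 10 genes, against 44% of all genes. Every si-A2 array lay above every si-A1 array in 3 genes and below in 2, against 7.26% and 6.68% of all genes. The 95% intervals of the log2 difference reached from -0.90 to 0.41 for ZMAT3 and from -0.39 to 0.69 for SPATA18. The counts above come from a fit with the slide and without the replicate number. Whether the number pairs the samples at 48 h is uncertain, since same-numbered arrays always shared a slide. Deviations from the group means, not adjusted for the slide, correlated at a median of 0.22 for same-numbered arrays. The median was 0.20 for other arrays of the same slide and -0.20 for arrays of different slides. With the replicate number as a block, RRM2B lost its call for si-A1 (adjusted p = 0.0106), which left 4 genes. SPATA18 and RRM2B lost theirs for si-A2 (adjusted p = 0.0205 and 0.0232), which left 0. No member stayed called after si-A2 when any 1 of the 11 arrays was left out, and with the interquartile filter, or with only the compared groups in the fit, the count was 3 for si-A1 and 0 for si-A2. With the dim array included it was 0 for both. The share of all genes called under these settings was not determined. Within slides, 10 of the 10 genes were higher than si-SCRL on slide 1 and 9 on slide 2, for si-A1 and for si-A2. The share of all genes within a slide was not determined. Slide 1 held only 1 of the si-A2 arrays used. For si-A1 the count fell to 2 without si-SCRL replicate 4 or any of si-A1 replicates 1, 2 and 4, and to 3 without si-SCRL replicate 3 or si-A1 replicate 3.

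**Figure D3:**
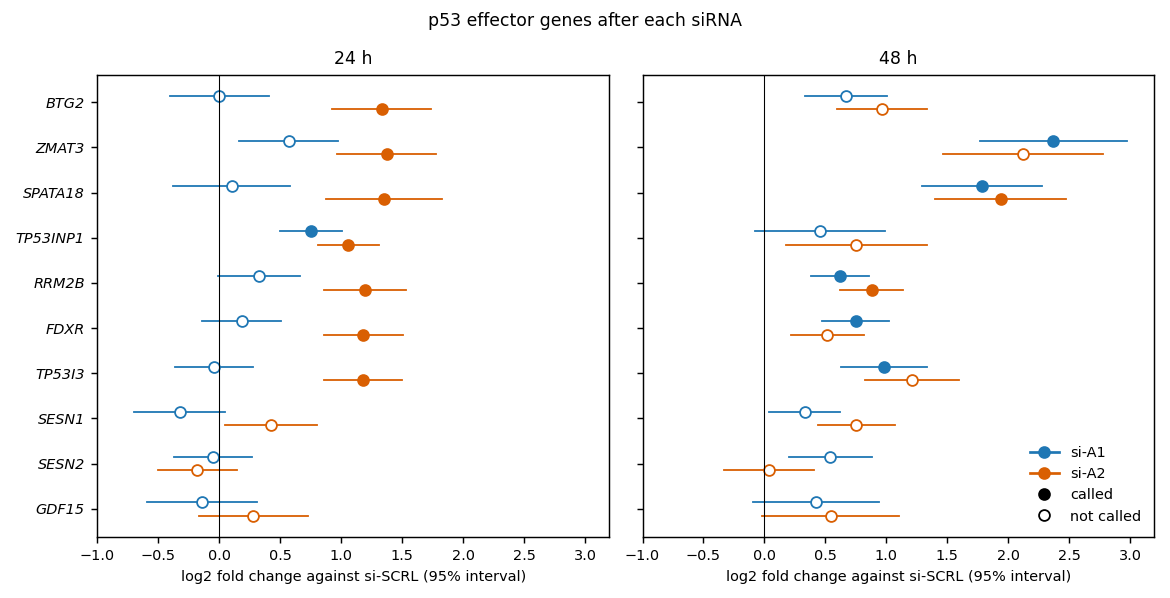
Log2 fold change against si-SCRL (x axis) of the 10 p53 effector genes at 24 h and 48 h, with 95% confidence intervals, for si-A1 and si-A2; filled points were called. At 24 h the si-A2 points of 7 genes lie between 1.06 and 1.38, and at 48 h the intervals of both siRNAs overlap for every gene.

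The effect of each siRNA was compared between the time points over the probes found on both array versions, with 30634 genes tested. For this test the arrays of both time points were normalized together, so its changes are not exact differences of the fold changes given above. The 24 h and 48 h samples lie on separate array versions, so time and version cannot be told apart, and the test compares differences measured within each version. For si-A1 the log2 fold change was larger at 48 h in 9 of the 10 genes, against 48.8% of all genes, with a median change of 0.64. None of these changes was called (0.0588% of all genes were called larger and 0.104% smaller). Of the 10, 7 had an unadjusted p under 0.05, with the share of all genes not determined. The changes were 1.72 ± 0.31 (SE) for ZMAT3 (adjusted p = 0.0145), 1.51 ± 0.31 (SE) for SPATA18 (adjusted p = 0.0337) and 1.07 ± 0.21 (SE) for TP53I3 (adjusted p = 0.0211), and with scaling on the 75th percentile SPATA18 was called (adjusted p = 0.00859). The sizes for ZMAT3 and SPATA18 rest on the dim si-SCRL spots of 48 h, where normexp correction gave si-A1 values of 0.94 and 0.44. TP53INP1 was the gene with a smaller si-A1 value at 48 h (-0.41 ± 0.32, SE).

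For si-A2, 0 of the 10 changes were called (0.0392% of all genes were called larger and 0.00326% smaller), and 1 had an unadjusted p under 0.05. The value was larger at 48 h in 6 of the 10 genes, against 47.7% of all genes, with a median change of 0.12. It was lower at 48 h for FDXR (-0.73 ± 0.19, SE, adjusted p = 0.239) and BTG2 (-0.52 ± 0.26, SE), and higher for ZMAT3 (0.68 ± 0.33, SE).

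**Figure D4:**
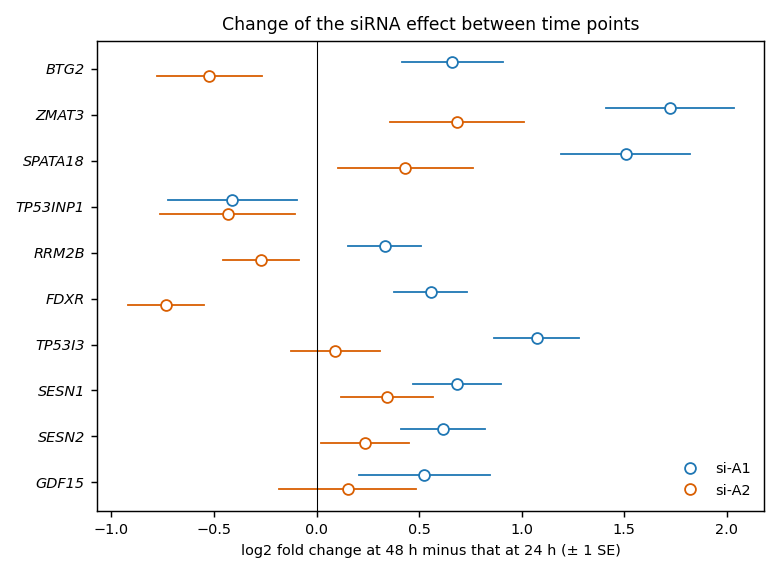
Log2 fold change at 48 h minus that at 24 h (x axis, ± 1 SE) for the 10 p53 effector genes, for si-A1 and si-A2. Both fold changes come from a joint fit to the arrays of both time points normalized together. For si-A1, 9 of the 10 points lie above 0, up to 1.72 for ZMAT3, which like SPATA18 was dim after si-SCRL at 48 h, and for si-A2 the points lie between -0.73 and 0.68; none was called.

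Relatives of the 10 genes were measured beside them. RRM2, the ribonucleotide reductase subunit of dividing cells, fell while its p53-induced counterpart RRM2B rose or was not called. Its log2 fold change at 24 h was -3.12 with si-A1 (adjusted p = 7.14e-05) and -2.88 with si-A2 (adjusted p = 0.000101), and with si-A1 at 48 h it was -3.75 (adjusted p = 5.26e-05). After si-A2 at 48 h its value was -1.55 (adjusted p = 0.0216), and the siRNAs differed, with si-A2 above si-A1 (2.20, called, adjusted p = 0.00353). RRM1, the large subunit, was not called in any comparison, with values from -0.81 to -0.35 against si-SCRL.

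SESN3, the sestrin outside the group, fell by 1.29 after si-A2 at 24 h (adjusted p = 0.00201), where SESN1 read 0.42 and SESN2 -0.18. At 48 h it was called lower after si-A2 than after si-A1 (-1.10, adjusted p = 0.00184), a comparison in which SESN1 read 0.42 and SESN2 -0.50. BTG1, a relative of BTG2, was called higher after si-A1 at 48 h (0.89, adjusted p = 0.00883) and read -0.23 after si-A2, while BTG3 and TP53INP2 were not called.

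**Figure D5:**
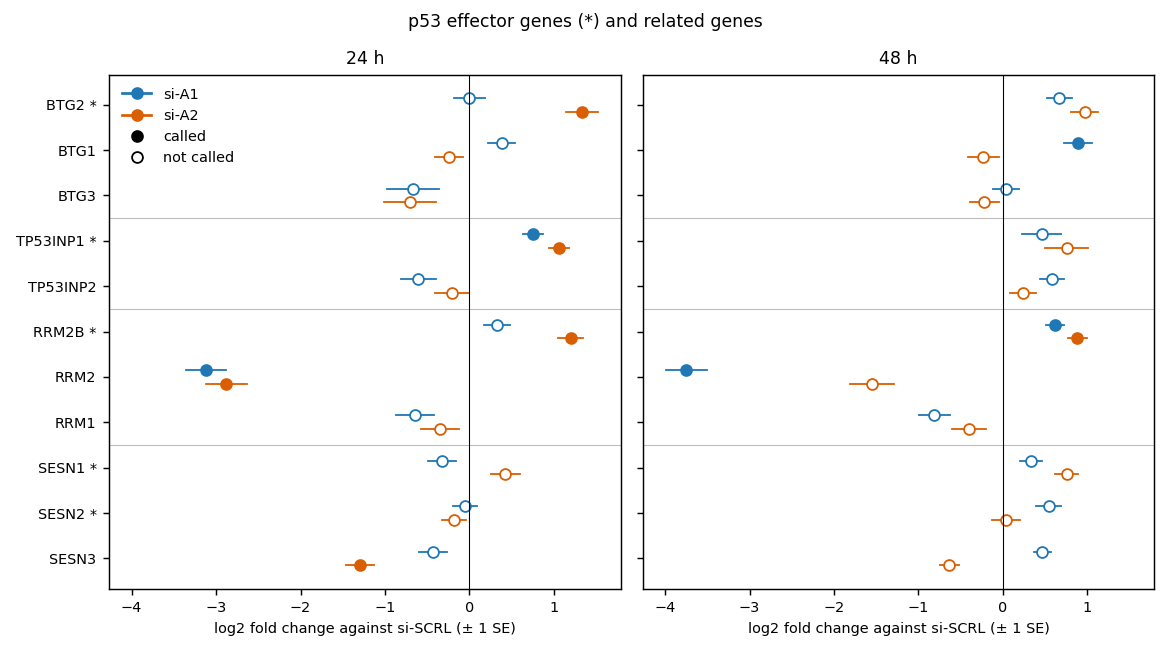
Log2 fold change against si-SCRL (x axis, ± 1 SE) of members (marked *) and of related genes, grouped by family, at 24 h and 48 h after each siRNA; filled points were called. RRM2 lies at -3.12 and -2.88 at 24 h, where RRM2B lies at 0.32 and 1.20.

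Of 25 other p53 targets, 23 were tested at 24 h and 24 at 48 h. At 24 h FAS, a death receptor, was called higher after both siRNAs (0.88 and 1.31) and CDKN1A after si-A2 (1.79, adjusted p = 0.000101), so that 1 of 23 was called higher for si-A1 and 2 of 23 for si-A2, with none lower, against 0.0731% and 0.0758% of all genes called higher. The median log2 fold change was 0.03 for si-A1 and 0.45 for si-A2. At 48 h, 5 of 24 were called higher after si-A1 (CDKN1A at 2.12, PLK2, GADD45A, FAS and CYFIP2) and 1 lower (TRIAP1 at -0.61), where 2.3% of all genes were called higher and 3.53% lower. GADD45A was called after si-A2 (1.06, adjusted p = 0.00436), where 0.0654% of all genes were called higher. CDKN1A also read higher after si-A1 at 24 h (0.68, adjusted p = 0.0468) and after si-A2 at 48 h (1.22, adjusted p = 0.0164), without being called. MDM2, a target that itself restrains p53, read -0.10 and 0.01 at 24 h and 0.32 and -0.01 at 48 h for si-A1 and si-A2, and was not called. CDKN1A was called for a larger si-A1 effect at 48 h (1.32 ± 0.22, SE, adjusted p = 0.00941).

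Of 16 genes of the ATF4 and stress response, limma called 0 at 24 h for si-A1 or si-A2 against si-SCRL. Of all genes, 0.0731% and 0.0758% were called higher and 0.943% and 0.826% lower, so 0 of 16 is near that share. An unadjusted p under 0.05 was reached by 5 with si-A1 and 9 with si-A2, with the share of all genes not determined. The median log2 fold change was 0.09 for si-A1 and -0.28 for si-A2. Between si-A2 and si-A1 at 24 h it was -0.52, with 0 genes called. Every si-A2 array lay below every si-A1 array in 11 of the 16 genes and above in 1, against 1762 and 1925 of all 36918 genes. DDIT3, a transcription factor of the stress response, was called higher after si-A1 at 48 h (1.05, adjusted p = 0.0064), where 2.3% of all genes were called higher and 3.53% lower. Of the interferon list, ISG15 was called higher after si-A1 at 48 h (0.72, adjusted p = 0.00662) and limma called 0 of the 10 genes of the list at 24 h, with IFI44 alone at an unadjusted p under 0.05 after each siRNA (-0.85 and -0.89). The luminal marker KLK2 was called lower after si-A1 at 48 h (-1.04). The part of these genes in the results of the p53 effectors was not tested.

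Across the 12 arrays at 24 h, the 45 pairs among the 10 genes had Pearson correlations between -0.53 and 0.95 with a median of 0.69, as a description of arrays that share their treatment groups. All 9 negative correlations involved SESN2. Of 19558 genes compared, those outside the group with the profile most like the mean standardized profile of the 10 genes were NPTN (r = 0.959), GADD45A (r = 0.945), RPS27L (r = 0.944), ZNF239 (r = 0.943) and CDKN1A (r = 0.942). MDM2 had r = -0.14 with that profile.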

How the data were processed

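RNA of LNCaP cells was hybridised to one-colour Agilent 60K arrays, version 2 at 24 h and version 3 at 48 h, and read with Feature Extraction. The deposited array files hold a processed intensity per spot, background-subtracted within the array. The log2 values deposited by the authors are these intensities after quantile normalization (R 3.4.3 and limma 3.34.8, per the submitters' processing notes) and served as an alternative.

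Here the processed intensities were quantile-normalized within each time point (R 4.3.3, limma 3.58.1). For the comparison between time points, the arrays of both were quantile-normalized together. Control and flagged spots were left out, a probe had to exceed the mean plus 3 SDs of the negative controls on 3 arrays, and the brightest probe stood for a gene. The fit held the 3 siRNAs and the slide, with 2 slides per time point, and p-values were adjusted by Benjamini-Hochberg over all genes tested. The methods' filter on the interquartile range was kept as an alternative. The 10 genes and the lists were chosen with earlier results of these data known. Named beside them were list members that passed the test, CDKN1A, MDM2, relatives of the 10 genes, and the 5 genes with the most similar 24 h profile. BTG3 and IFI44 were named after their values were seen. The code was tested on simulated data.

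Replicates are biological per the study's methods. Deviations from the group means of same-numbered arrays, which always shared a slide, correlated at 0.187 to 0.361 at 48 h and at -0.15 to 0.15 at 24 h. The main fit held the slide and not the number, and a fit with the number as a block was an alternative. At 48 h, arrays of different numbers on the same slide correlated at 0.10 to 0.30, so whether the number is a true pairing is uncertain. The number of arrays limits the precision. Alternatives covered normalization, background, filters, probes, slide, replicate block, groups in the fit and each array left out. Some list members that passed the test are not reported here.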

Additional observations from a re-analysis of the deposited data

Results flagged for a closer look

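At 24 h, si-A1 replicate 2 was the lowest of its group for SESN1, at a log2 intensity of 8.63 with the nearest array at 8.86, and for TP53INP1, at 10.46 with the nearest at 10.62. These were 2 of 50 groups of 4 arrays examined, and chance sets a sample apart in this way in about 1 of 20 groups.

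BTG2 and TP53I3 differed between the siRNAs at 24 h by 1.33 and 1.22 on the log2 scale, higher after si-A2, and both differences passed the threshold of the fit across all genes.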

How the results depend on the processing

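Counts of the 10 genes called were 1 for si-A1 and 7 for si-A2 at 24 h, 2 between the siRNAs at 24 h, and 5 for si-A1 and 2 for si-A2 at 48 h. With the interquartile filter they were 0, 0, 0, 3 and 0, and with only the compared groups in the fit 0, 0, 0, 3 and 0. When a call needed a log2 difference of 1 in either direction, si-A1 had 0 at 24 h and 2 at 48 h, and si-A2 had 1 at 48 h. With the median over probes, si-A1 had 0 at 24 h. With normexp background correction 5 genes were called between the siRNAs at 24 h and 5 for si-A2 at 48 h. For si-A2 at 48 h the count was 0 without the background filter, 1 without the slide term and 4 with the slide as a random block. With the dim array included it was 0 for si-A1 and 0 for si-A2 at 48 h, and RRM2B after si-A2 then read -0.29 in place of 0.88. The change of the si-A1 effect between time points was called in 1 gene, SPATA18, with scaling on the 75th percentile and in 0 otherwise. For all alternative settings, and with arrays left out, the share of all genes called was not determined. Whether a changed count is particular to the 10 genes is therefore not known.

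With the replicate number as a block, the counts at 48 h were 4 for si-A1 and 0 for si-A2. At 24 h, where deviations of same-numbered arrays correlated at a median of 0.02, the replicate block gave 0 for si-A1, 4 for si-A2 and 0 between the siRNAs.

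Leaving out single arrays gave, at 24 h, 0 to 1 calls with si-A1, 4 to 7 with si-A2 and 0 to 4 between the siRNAs, and at 48 h 2 to 5 calls with si-A1 and 0 with si-A2 whichever array was left out. Between the siRNAs at 24 h it was 4 without si-SCRL replicate 3, 1 without si-SCRL replicate 1, 2 or 4 or si-A2 replicate 3, and 0 without any other array. The cause of these changes was not tested.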
